A study of Mus musculus with 7 samples.

Results

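The genes described here are 40 mouse genes of the interferon response and of MHC class I antigen presentation, followed in 7 RNA-seq libraries of cultured primary mouse oligodendroglia. They were taken by name from a list of interferon-stimulated and antigen presentation genes, and all 40 were found among the 49315 gene identifiers of the count files. By role, 24 were interferon-stimulated effectors and regulators, 3 were sensors of viral RNA, 5 were transcription factors of the pathway and 8 belonged to MHC class I presentation. The study asked what loss of KLF13, a Krüppel-like transcription factor, did to oligodendrocyte differentiation. Oligodendroglial cells came from brains of newborn wildtype control pups or Klf13 knockout pups (P0 to P3, both sexes) and were kept in differentiating SATO medium for 6 days. There were 4 control and 3 knockout samples, labelled as biological replicates. The knockout was constitutive, so that every cell type in the cultures lacked KLF13. Mixed glial cultures had been shaken off and depleted of microglia before differentiation. The mouse strain of either group and whether controls were littermates are not given in the sources used here.

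Interferons are secreted on infection and bind to surface receptors whose kinases activate transcription factors. STAT2 and IRF9 are parts of the ISGF3 complex formed in this way, which binds the interferon-stimulated response element (ISRE) in promoters of interferon-stimulated genes. MHC class I molecules carry peptides, cut by the proteasome and pumped into the endoplasmic reticulum by the TAP transporter, to the cell surface. In the brain microglia are a major source of both gene programs, and oligodendroglia can take them up under interferon. MHC genes differ in sequence between mouse strains, and reads of an allele unlike the reference are mapped less well. A difference in H2-K1 or H2-D1 between groups of different strain background therefore cannot be told apart from a difference in mapping.

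The libraries held 24507471 to 59596479 counts on genes. The rRNA-linked genes Lars2, Gm42418 and Gm23935, which draw reads from ribosomal RNA, took 6.03% to 18.0% of them. Klf13 had 10669.9 to 11999.5 normalized counts in the controls and 802 to 961 in the knockouts. One control library stood apart before any comparison of genotypes. The summed level of 15 microglia markers was 143604 normalized counts in control replicate 3 and 32878 to 40179 in the other controls, and all 15 were highest in control replicate 3. Knockout replicate 3 had 69407, against 33539.7 and 38966 in the other knockouts. The oligodendroglial markers were abundant in every library, with sums of 1071595 to 1249423 in controls and 370292 to 414430.4 in knockouts for 10 genes.

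Of the 40 members, 30 had a promoter sequence in the RefSeq table used, on build GRCm38.p6. In the 250 bases before the transcription start, the ISRE core (GAAANNGAAA, either strand, overlapping matches counted) was found for 10 of these 30 members (33.3%), compared with 3.46% of 27025 genes and 2.98% of all 32851 promoters. The 10 members were B2m, Bst2, Gbp2, Gbp3, Ifit1, Ifit3, Isg15, Oas1a, Rsad2 and Stat2. A second motif, the palindrome TTCNNNGAA, was found for 6 of 30 members (20.0%) and 8.13% of genes (7.02% of promoters). The letters CACCC, shared by many binding sites of Krüppel-like factors, were found for 24 of 30 members (80.0%) and 54.5% of genes (52.0% of promoters). A match describes letters only, and binding was not measured here. The following 5 promoters were chosen because they belong to an effector with overlapping ISRE cores (Isg15), to the member with the lowest log2 fold change (Ifit1), to the member with the highest level per length (B2m), to a subunit of ISGF3 (Stat2) and to an MHC class I heavy chain in whose window the core was not found (H2-K1). Each runs from 250 bases before the start to the last base before it, 5′ to 3′ on the strand of the gene, with ISRE cores in capitals.
Isg15 promoter, chr4:156200819-156201068, minus strand: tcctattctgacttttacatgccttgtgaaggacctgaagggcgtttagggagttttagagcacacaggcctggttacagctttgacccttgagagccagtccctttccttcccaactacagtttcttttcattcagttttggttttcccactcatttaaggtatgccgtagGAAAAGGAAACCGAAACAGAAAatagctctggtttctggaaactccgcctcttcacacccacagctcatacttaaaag
Ifit1 promoter, chr19:34640639-34640888, plus strand: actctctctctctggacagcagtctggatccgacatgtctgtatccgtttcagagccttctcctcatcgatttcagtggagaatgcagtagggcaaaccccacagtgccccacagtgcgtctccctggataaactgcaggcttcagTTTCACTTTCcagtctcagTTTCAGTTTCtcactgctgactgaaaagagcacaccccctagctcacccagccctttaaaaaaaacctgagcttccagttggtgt
B2m promoter, chr2:122147437-122147686, plus strand: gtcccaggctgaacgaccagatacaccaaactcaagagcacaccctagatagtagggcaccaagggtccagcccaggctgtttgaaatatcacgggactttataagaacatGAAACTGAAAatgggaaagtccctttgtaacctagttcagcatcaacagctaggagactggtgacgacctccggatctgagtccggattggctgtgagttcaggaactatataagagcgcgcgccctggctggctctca
Stat2 promoter, chr10:128270248-128270497, plus strand: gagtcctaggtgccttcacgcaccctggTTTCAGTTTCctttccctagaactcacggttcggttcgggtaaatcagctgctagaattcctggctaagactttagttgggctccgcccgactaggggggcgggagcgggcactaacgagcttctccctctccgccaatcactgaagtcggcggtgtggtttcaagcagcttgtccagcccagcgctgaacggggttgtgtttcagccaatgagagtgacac
H2-K1 promoter, chr17:34000334-34000583, minus strand: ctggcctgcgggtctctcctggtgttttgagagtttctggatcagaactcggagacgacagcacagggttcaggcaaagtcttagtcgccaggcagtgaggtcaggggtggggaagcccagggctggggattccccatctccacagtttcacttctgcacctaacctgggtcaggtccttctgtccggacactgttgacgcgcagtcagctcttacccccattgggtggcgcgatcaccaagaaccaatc
The 3 cores of Isg15 lay between 78 and 57 bases before the start, and each overlapped the core next to it. The 2 cores of Ifit1 were apart, both on the opposite strand, the nearer one ending 76 bases before the start. In B2m the single core lay 139 to 130 bases before the start, and in Stat2 it lay 222 to 213 bases before it on the opposite strand.

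Few of these genes differed between the genotypes beyond the spread of the cultures. Of 39 members with enough counts for the test, 1 was lower in the knockout at an adjusted p of at most 0.05 (edgeR's quasi-likelihood test, adjusted over 18352 genes), Mx2, and 0 were higher. Among all tested genes 12.2% were lower and 11.6% were higher by this rule. At an unadjusted p of at most 0.05, 2 members were lower and 0 were higher, against 18.4% and 18.2% of all genes. DESeq2's Wald test found 2 lower (Mx2 and Stat2) and 0 higher, against 12.4% and 10.7% of all genes. When a log2 fold change of 1 or more in size was required as well, 0 members were called in either direction, compared with 3.08% of genes lower and 3.97% higher. The groups did not overlap for 2 members that were lower in the knockout (Mx2 and Stat2) and for 0 that were higher, against 18.0% and 18.3% of genes. Still, 35 of the 39 log2 fold changes were below 0, with a median of -0.51, whereas the median of all genes was -0.00. Values ran from -1.23 for Ifit1 to 0.28 for Gbp2. The replicates came from cultures that the labels call biological replicates, and the p-values measure the spread between these samples. In such bulk RNA, fewer cells of a type and less RNA per cell cannot be told apart.

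**Figure D1:**
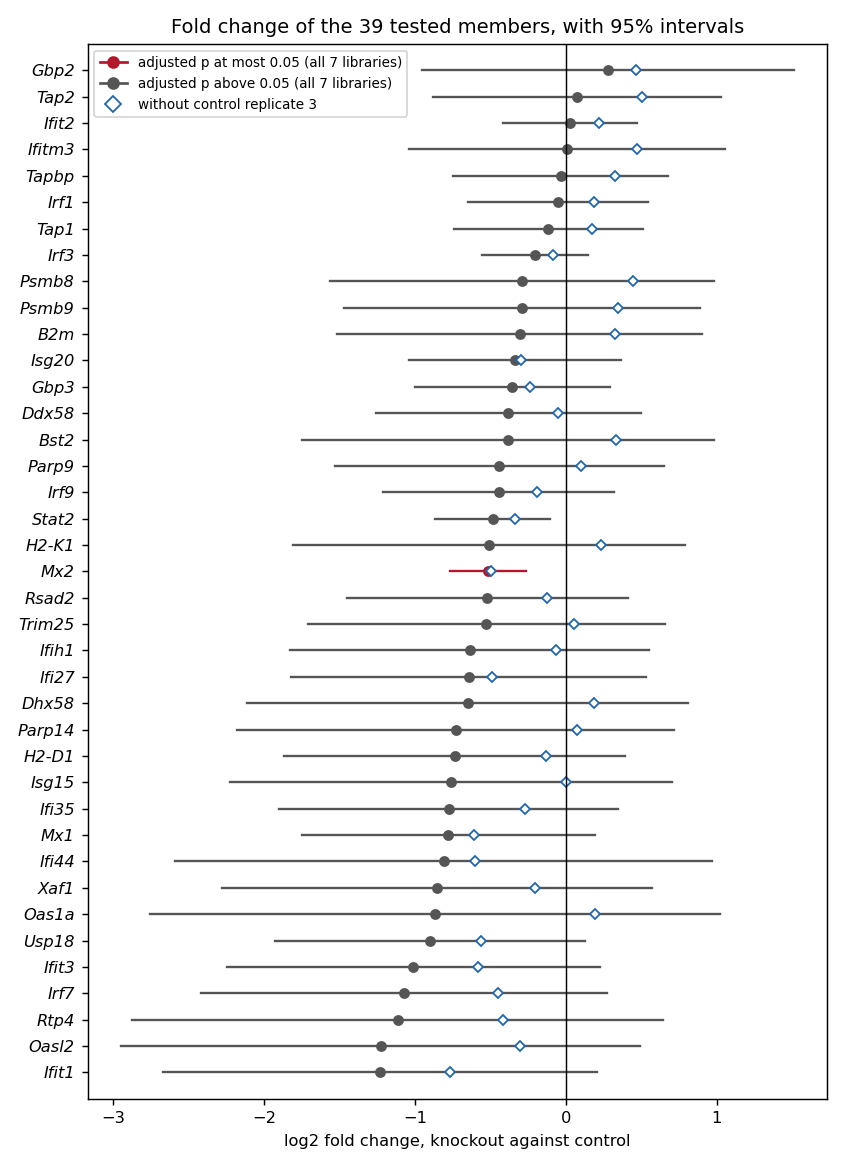
Log2 fold change of the 39 tested members, knockout against control, from edgeR with all 7 libraries (points) with 95% intervals (lines), and the same value without control replicate 3 (open diamonds). Only Mx2, in red, passed an adjusted p of 0.05, and without control replicate 3 the median moved from -0.51 to -0.07.

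The median depended on control replicate 3. Without control replicate 3, 21 of 39 members were below 0, the median was -0.07, and 1 member was lower (Mx2) and 0 were higher, against 11.1% and 9.54% of all genes. When replicate 3 of both groups, the libraries with the highest microglia marker levels in each group, were left out, the median was -0.33, and 2 members were lower (Mx2 and Stat2) and 0 higher, against 8.21% and 6.30% of genes. With the mean log2 level of the microglia markers as a covariate it was -0.29, again with Mx2 and Stat2 lower and 0 higher, against 13.6% and 12.5%. The fit with the replicate number as a block gave a median of -0.38, the same 2 genes lower and 0 higher, against 11.1% and 9.49% of genes. Among libraries with more than 10% of counts on the rRNA-linked genes (2 controls and 2 knockouts), 23 of 40 members had a lower knockout mean, with a median log2 ratio of -0.05. Below 10% (2 controls, one of them control replicate 3, and 1 knockout), all 40 did, with a median of -1.03.

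Mx2, an interferon-induced dynamin-like GTPase on chromosome 16 (97535308 to 97560900, GRCm38), was the member that fell. It had 383, 348, 402 and 407 normalized counts in control replicates 1 to 4 and 269, 249 and 291 in knockout replicates 1 to 3. The highest knockout library lay below the lowest control library, and control replicate 3 was no higher than control replicate 4. The means were 385 ± 26.9 (SD, n = 4) and 269.6 ± 21.1 (SD, n = 3), a log2 fold change of -0.51 (SE 0.11, adjusted p = 0.0143 by edgeR's quasi-likelihood test). The log2 ratio was -0.50 among libraries with a high rRNA-linked share and -0.59 among the others. Without knockout replicate 1 or 2 the adjusted p of edgeR rose to 0.0667 and 0.0588. Mx1, its paralog, had 40.5, 24.1, 67.4 and 68.3 normalized counts in controls and 23.5, 23.4 and 39.6 in knockouts, and its control and knockout libraries overlapped (log2 fold change -0.78, SE 0.42, adjusted p = 0.224 by edgeR). The summed oligodendroglial markers, given above, were lower in every knockout than in any control as well, and their part in the lower Mx2 and Stat2 was not tested.

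STAT2 carries the activation domain of ISGF3. Stat2 (chromosome 10, 128270576 to 128292849) had 817, 859, 1242 and 938 normalized counts in controls and 625, 654 and 786 in knockouts, so that the groups did not overlap, by a narrow margin. Its log2 fold change of -0.48 (SE 0.16) had an adjusted p of 0.0694 by edgeR's quasi-likelihood test, 0.0234 with the replicate block, 0.0104 with the microglia marker level as a covariate and 0.0335 by DESeq2's Wald test. It passed in 4 of 18 alternatives and in 0 of 7 that left out 1 library, with an adjusted p of up to 0.228 by edgeR. The log2 ratio of Stat2 was -0.31 among libraries with a high rRNA-linked share and -0.68 among the others. The 4 other transcription factors overlapped between the groups. Log2 fold changes were -1.07 for Irf7, the amplifier of type I interferon production, -0.45 for Irf9, the DNA-binding part of ISGF3, and -0.05 for Irf1, which acts downstream of interferon gamma. Without control replicate 3 those of Irf7 and Irf9 were -0.45 and -0.19, and that of Irf1 was 0.19. Irf3, which is present before infection and activates the first interferon genes, was the factor with the highest level per length, with 774, 935, 1151 and 841 normalized counts in controls and 758, 916 and 733 in knockouts. It varied least among libraries of the 5 factors by its standard error (0.15) and had a log2 fold change of -0.20, or -0.08 without control replicate 3.

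**Figure D2:**
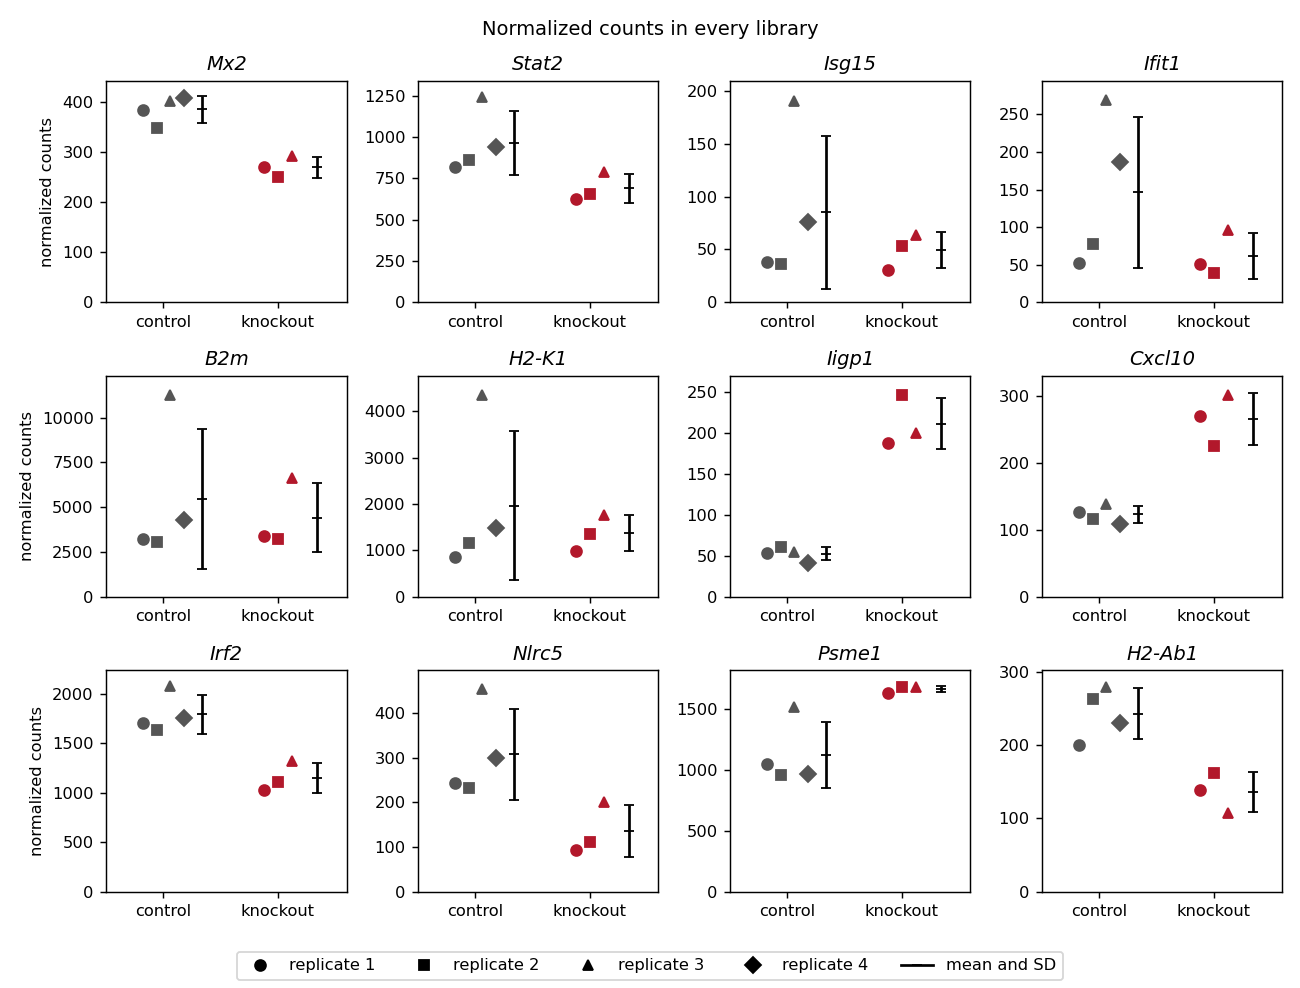
Normalized counts (y axes, from 0) of 12 genes in every library, with control libraries in grey, knockout libraries in red, a symbol for each replicate number, and the mean with SD beside them. Mx2 and Stat2 were lower in all 3 knockouts than in any control, B2m and H2-K1 were set apart by control replicate 3, and Iigp1 and Cxcl10 were higher in every knockout.

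Among the 24 interferon-stimulated effectors and regulators, 20 of 23 tested log2 fold changes were below 0, with a median of -0.73. The median was -0.24 without control replicate 3 (14 below 0), -0.52 without replicate 3 of both groups (20 below 0) and -0.49 with the replicate block (21 below 0). Only Mx2 passed the test. The IFIT proteins bind foreign RNA and block its translation. Ifit1 had 52.7, 77.4, 269 and 186 normalized counts in controls and 50.6, 38.5 and 96.7 in knockouts. Control replicates 3 and 4 were high and the other 5 libraries were low or intermediate. The log2 fold change of -1.23 had a standard error of 0.62 and an adjusted p of 0.197 by edgeR, and was -0.77 without control replicate 3. Ifit3 followed the same order of controls (log2 fold change -1.01, and -0.58 without control replicate 3), whereas Ifit2 differed little between libraries, from 480.2 to 842 normalized counts, with a log2 fold change of 0.03. Ifit3 and Ifit1 have close copies, Ifit3b and Ifit1bl1, between which reads can be split.

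The oligoadenylate synthetases make the messenger that switches on RNase L. Oas1a had 58.1, 52.3, 413 and 119.8 normalized counts in controls and 52.4, 55.0 and 153 in knockouts, and of all members it had the largest excess of control replicate 3 over the mean of the other controls, 5.38-fold. The log2 fold change of Oas1a was -0.87 with all libraries and 0.19 without control replicate 3, and it has a close copy in Oas1g. Oasl2 behaved alike among the controls (107, 97.5, 674 and 235 normalized counts, log2 fold change -1.23, SE 0.74, and -0.31 without control replicate 3). Oas2 was the member that did not pass the filter on low counts, with 4.02 to 37.7 normalized counts in controls and 4.12 to 9.90 in knockouts.

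Effectors at membranes had the highest levels per length of this group. Ifi27, a small hydrophobic protein, had 865, 704, 2052 and 2682 normalized counts in controls and 639, 1025 and 1353 in knockouts. Here control replicate 4 was the highest library. Bst2 encodes tetherin, which holds budding virus at the cell surface, and had 393, 370.0, 1705 and 663 normalized counts in controls and 363, 555 and 874 in knockouts. Ifitm3, which blocks fusion of virus in endosomes, had 346, 315, 1113 and 653 normalized counts in controls and 539.8, 499 and 789 in knockouts. The knockout libraries of both genes lay within the range of the controls, apart from knockout replicate 1 of Bst2, which was just below it. Log2 fold changes were -0.64 (SE 0.50) for Ifi27, -0.38 (SE 0.58) for Bst2 and 0.01 (SE 0.45) for Ifitm3, and without control replicate 3 those of Bst2 and Ifitm3 were 0.34 and 0.47. That of Ifi27 was -0.24 without control replicate 4 and -0.17 with the replicate block.

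Isg15, a ubiquitin-like modifier, had 37.8, 36.2, 191 and 75.8 normalized counts in controls and 30.7, 52.9 and 64.0 in knockouts. One control was far above all other libraries, and without it the log2 fold change moved from -0.76 to 0.00. Usp18, which removes ISG15 from proteins and restrains the interferon receptor, had a log2 fold change of -0.90 (SE 0.44) and Trim25, a ubiquitin ligase that acts on RIG-I, -0.53 (SE 0.51). They were -0.56 for Usp18 and 0.05 for Trim25 without control replicate 3. The ADP-ribosyltransferase family members Parp9 and Parp14 belonged to those with a lone high control. Parp9 had 232, 219, 705 and 299 normalized counts in controls and 204, 210.3 and 386 in knockouts. For Parp14 they were 308, 336, 1386 and 396 in controls and 251, 257 and 583 in knockouts. Their log2 fold changes, -0.44 and -0.73, turned to 0.10 and 0.08 without control replicate 3. Parp9 shared 458 exonic bases with Dtx3l on the other strand, and reads there cannot be assigned without knowledge of the strand setting.

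The guanylate-binding proteins Gbp2 and Gbp3 attack membranes of intracellular pathogens. Gbp2 was the single member with its highest level in a knockout library, and had 45.9, 57.3, 151 and 183 normalized counts in controls and 95.7, 104 and 197 in knockouts. Without control replicate 3 its log2 fold change was 0.47, and without knockout replicate 3 it was -0.13. With the replicate block it was 0.73 (adjusted p = 0.0608 by edgeR). Gbp3 had a log2 fold change of -0.35 and has a close copy in Gbp7. The remaining effectors ranged from -1.11 for Rtp4 to -0.33 for Isg20, an RNA exonuclease, with Ifi35, Ifi44, Rsad2 (viperin, an enzyme that makes a chain-terminating nucleotide) and Xaf1 between them. Without control replicate 3, Rtp4 was at -0.41, Ifi35 at -0.27, Xaf1 at -0.20 and Rsad2 at -0.12, and without control replicate 4, Isg20 was at -0.10, Gbp3 at -0.14 and Ifi44 at -0.31. None of these passed the test, with adjusted p from 0.294 to 0.4996 by edgeR's quasi-likelihood test.

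All 3 sensors had their highest level in control replicate 3 and their highest knockout level in knockout replicate 3. Dhx58 (LGP2, a regulator of the other sensors) had 70.2, 74.4, 319 and 85.2 normalized counts in controls and 52.4, 77.0 and 129 in knockouts. Only control replicate 3 stood out among its controls. Ddx58 (RIG-I) and Ifih1 (MDA5) recognize viral RNA and signal through MAVS. Ddx58 reached 765 normalized counts in control replicate 3 and had 308 to 511 in the other controls. Ifih1 reached 535 in control replicate 3 and had 148 to 219 in the other controls. Log2 fold changes were -0.65, -0.38 and -0.64, with a median of -0.64. Leaving out control replicate 3 gave 0.19, -0.05 and -0.07. The median was then -0.05, and it was -0.38 without replicate 3 of both groups and -0.60 with the replicate block.

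The 2 most abundant members per length belonged to MHC class I. Mean levels per kilobase of exon were 5830.2 normalized counts for B2m, 1152 for H2-D1, 908 for Ifi27, 897 for Ifitm3, 779 for Bst2, 655 for H2-K1, 594 for Tapbp and 253 for Irf3, the 8 highest of the 40. B2m, on chromosome 2 (122147686 to 122153083), encodes the shared light chain. It had 3240.5, 3035, 11268 and 4310.5 normalized counts in controls and 3387, 3216 and 6641 in knockouts. All libraries but replicate 3 of each group lay between 3035 and 4310.5. The log2 fold change of B2m was -0.31 (SE 0.52, adjusted p = 0.717 by edgeR), and 0.32 without control replicate 3.

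The other 7 lie in the MHC on chromosome 17, between 33915899 and 35267499. H2-K1, a classical heavy chain, had 861, 1159, 4340.1 and 1482 normalized counts in controls and 991, 1357 and 1766 in knockouts. H2-D1, the other classical heavy chain here, had 1812, 2521, 7302 and 2715 normalized counts in controls and 1549, 2194 and 2697 in knockouts. Knockout libraries of both were inside the control range, apart from knockout replicate 1 of H2-D1, which was the lowest library. Their log2 fold changes were -0.51 (SE 0.56) and -0.74 (SE 0.48), and without control replicate 3 they were 0.23 and -0.13. Both share long stretches with other MHC class I genes, and their split of reads is uncertain.

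Genes of peptide supply had the same lone high control, except Tap2. Tapbp (tapasin, which joins TAP to the empty heavy chain) had 1608, 1522, 3294 and 1485 normalized counts in controls and 1643, 1827 and 2316 in knockouts. Tapbp shared 665 exonic bases, 20.2% of its exons, with Gm19412 on the other strand. Tap1, one chain of the peptide transporter, had 324, 344, 657 and 369.7 normalized counts in controls and 343, 359 and 469 in knockouts. The partner chain Tap2 had 227, 403, 705 and 258 normalized counts in controls and 311, 549.9 and 395 in knockouts, and was the MHC class I member with a log2 fold change above 0 (0.08, SE 0.41). Tap2 shared 533 exonic bases with Gm15821 on the other strand. The immunoproteasome subunits replace constitutive ones under interferon. Psmb8 had 193, 187, 711 and 202 normalized counts in controls and 199, 217 and 374 in knockouts. Psmb9 had 59.4, 55.3, 201 and 72.1 normalized counts in controls and 57.8, 70.1 and 107 in knockouts. Psmb9 and Tap1 start close together on opposite strands and shared 212 exonic bases. For the whole MHC class I group 7 of 8 log2 fold changes were below 0 with all libraries (median -0.29), and 1 of 8 without control replicate 3 (median 0.33), with 0 genes passing the test either way. The median was 0.03 without replicate 3 of both groups (2 of 8 below 0), 0.06 with the microglia covariate (2 of 8) and -0.23 with the replicate block (7 of 8). The constitutive counterparts Psmb5, Psmb6 and Psmb7, in contrast, summed to 14264 to 16461 normalized counts over all 7 libraries, and 0 of 3 passed the test.

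**Figure D3:**
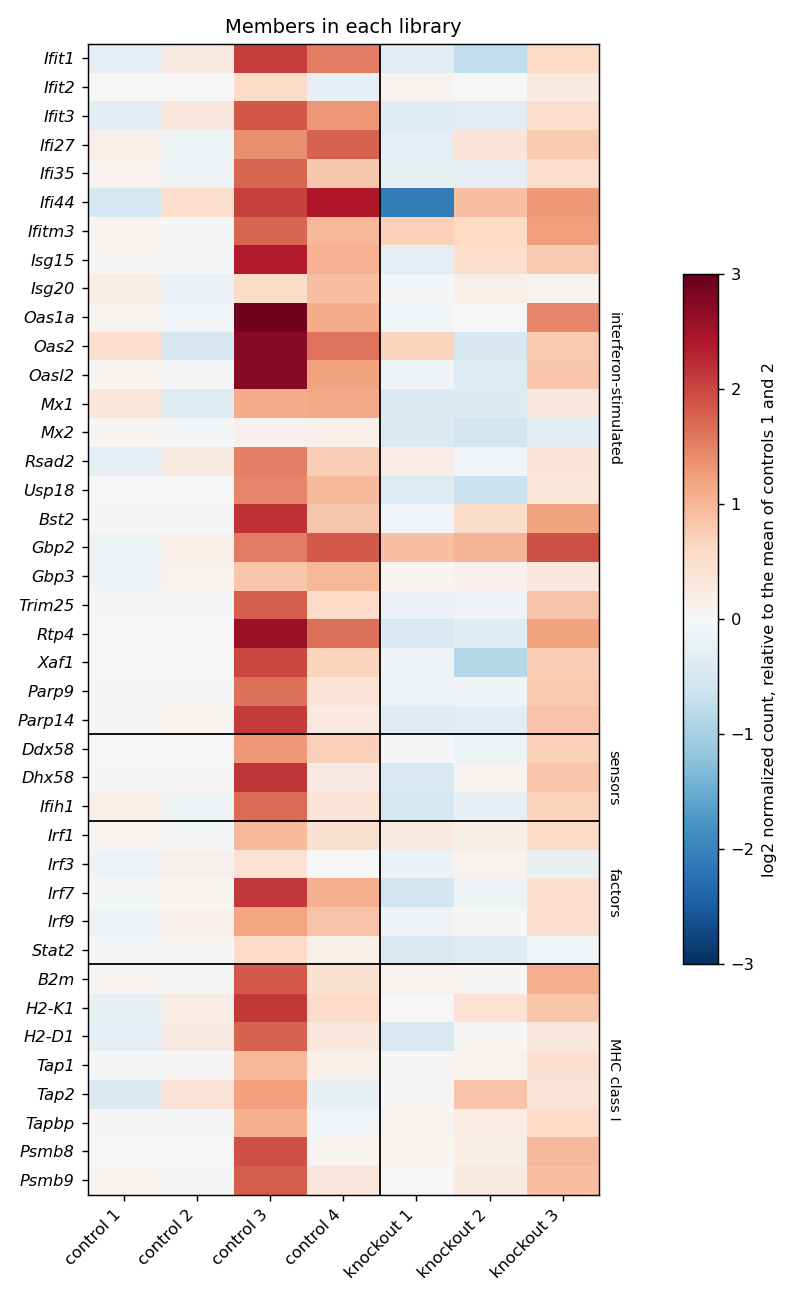
Log2 normalized count of all 40 members (rows, grouped by role) in each of the 7 libraries (columns), relative to the mean of control replicates 1 and 2, with red for higher and blue for lower. Control replicate 3 was the highest library for 33 of 40 members, and control replicate 4 was raised mainly among the interferon-stimulated group.

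The order of libraries was largely shared by the members. Among the 39 tested members, control replicate 3 was the highest library for 32 (82.1%), against 20.2% of all tested genes. Knockout replicate 3 was the highest knockout for 36 (92.3%), against 36.6%. Control replicate 3 exceeded the mean of the other controls by a median of 2.54-fold, from 1.06-fold for Mx2 to 5.38-fold for Oas1a, and knockout replicate 3 exceeded the other knockouts by a median of 1.73-fold. The 6 members that were highest in control replicate 4 were Ifi27, Ifi44, Isg20, Mx1, Mx2 and Gbp3, all of them interferon-stimulated effectors.

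The roles had different median levels in control replicate 4, with ranges that overlapped, and the difference was not tested. Compared with the mean of control replicates 1 and 2, 35 of 40 members were more than 1.5-fold higher in control replicate 3 and 22 in control replicate 4, 21 of them in both. The interferon-stimulated group had a median ratio of 3.37 in control replicate 3 and 1.98 in control replicate 4. The MHC class I group had a median ratio of 3.44 in control replicate 3 but 1.18 in control replicate 4, where its members ranged from 0.82 to 1.47. Medians in control replicate 4 were 1.33 for the sensors, 1.38 for the transcription factors and 1.41 for the further interferon-stimulated genes described below. Ifi44 was 5.004-fold higher in control replicate 4. The summed microglia markers moved with control replicate 3 (3.93-fold over control replicates 1 and 2) and not with control replicate 4 (1.01-fold). For 8 fibroblast and mural cell markers, with sums of 15606, 12347, 57442 and 42371 normalized counts in the controls and 5428 to 12778 in the knockouts, the ratios were 4.11 and 3.03. The 6 endothelial markers summed to 457 to 1127 normalized counts in controls and 402 to 565 in knockouts, and Cldn5, a defining one, was at 0 in all controls. The oligodendroglial markers had ratios of 0.98 and 0.91. Whether other cells in these cultures carried the higher member levels was not tested.

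**Figure D4:**
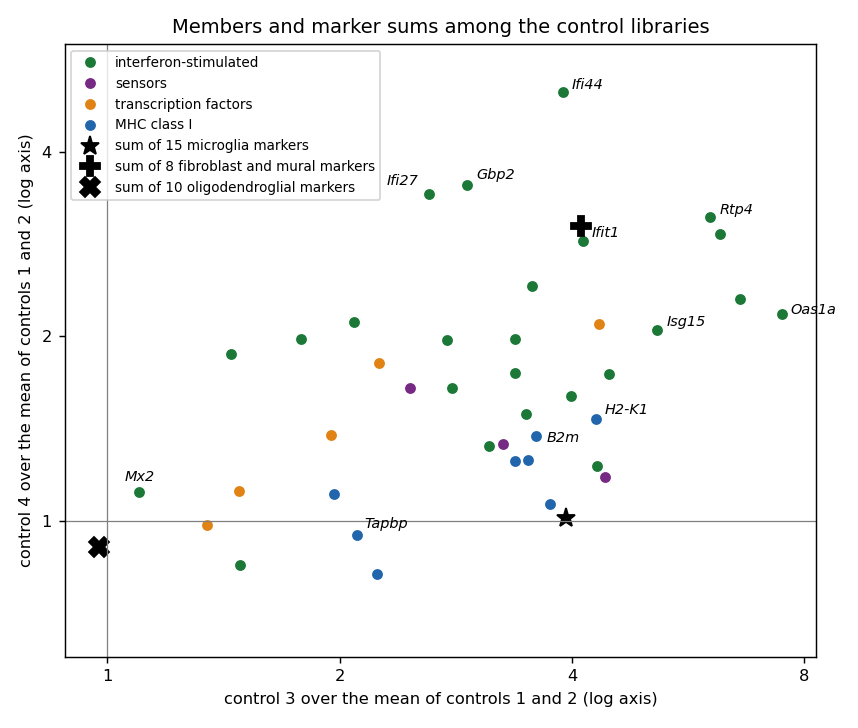
Level in control replicate 3 (x axis, log scale) and control replicate 4 (y axis, log scale) over the mean of control replicates 1 and 2, for the 40 members by role (coloured points) and for summed markers of 3 cell types (black symbols). MHC class I genes were raised mainly along the x axis, from 1.97 for Tap1 to 4.30 for H2-K1, and the microglia sum was at 3.93 and 1.01. Many interferon-stimulated genes were raised in both libraries, and the fibroblast and mural cell sum was at 4.11 and 3.03.

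Around the members, 115 further genes of interferon signalling, interferon stimulation and antigen presentation were listed, of which 97 were tested. By edgeR 5 were lower and 5 higher, against 12.2% and 11.6% of all genes, 1 and 3 of them with a log2 fold change of 1 or more in size. With the replicate block 11 were lower and 2 higher, against 11.1% and 9.49% of all genes. Without control replicate 3, 2 were lower and 7 higher, against 11.1% and 9.54%. None of the 8 interferon genes listed exceeded 12.2 normalized counts in a library. Ifna2, Ifne and Ifnl3 had 0 counts in all 7 libraries, which allows up to 3 counts or 1.22e-05% of the counts in the shallowest library, and Ifnb1 was above 0 in 3 libraries, with at most 12.2 normalized counts. Receptor genes were expressed, and Ifnar1 and Ifnar2 had log2 fold changes of 0.00 and 0.03.

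In the signalling list 2 of 20 tested genes were lower and 0 higher, against 12.2% and 11.6% of all genes (median log2 fold change -0.27). Without control replicate 3 the median was 0.03, with 9 of 20 below 0. In that fit 1 gene was lower and 1 higher, against 11.1% and 9.54% of all genes. Without replicate 3 of both groups the median was -0.11. With the replicate block 4 were lower and 0 higher, against 11.1% and 9.49% of all genes (median -0.27). Irf2, which competes with IRF1 for its sites and mostly represses, had 1709, 1630.0, 2078 and 1758 normalized counts in controls and 1029, 1106 and 1322 in knockouts (log2 fold change -0.64, SE 0.12, adjusted p = 0.00917 by edgeR). The groups were well apart, and Irf2 passed the test in all 18 alternatives. Mavs, the adaptor of the RNA sensors, had a log2 fold change of -0.28 (adjusted p = 0.0274 by edgeR) and passed in 11 of 18. The summed oligodendroglial markers were lower in every knockout than in any control as well. Their part in the lower Irf2 and Mavs, and in the lower Nlrc5 described below, was not tested.

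Of 53 further interferon-stimulated genes tested, 1 was lower and 3 were higher, against 12.2% and 11.6% of all genes. Iigp1, an immunity-related GTPase of a family that varies between mouse strains, had 54.0, 60.3, 54.9 and 41.2 normalized counts in controls and 188, 247 and 199.5 in knockouts. Cxcl10, a chemokine for T cells, had 127, 117, 139 and 109.5 normalized counts in controls and 271, 225 and 302 in knockouts. Both were higher in every knockout than in any control. Control replicate 3 was the highest control for Cxcl10 but not for Iigp1. The log2 fold changes were 2.01 (SE 0.18, adjusted p = 0.000534 by edgeR) and 1.11 (SE 0.15, adjusted p = 0.00326 by edgeR), and both passed in all 18 alternatives. Gbp5 was higher (0.87, adjusted p = 0.0482 by edgeR) and Tdrd7 lower (-0.26, adjusted p = 0.0474 by edgeR), in 6 and 7 of 18 alternatives. With the replicate block their adjusted p rose to 0.0876 and 0.0691 by edgeR. In that fit 4 genes of this list were lower and 2 higher, against 11.1% and 9.49% of all genes. Other markers moved with the same groups. The sum of 8 astrocyte markers was 94165 to 129637 normalized counts in controls and 183792 to 216080.2 in knockouts, and that of 8 neuron markers was 5539 to 8935 and 14360.2 to 21366. Their part in the higher Iigp1 and Cxcl10 was not tested. The median log2 fold change of this list was -0.51 with all libraries (45 of 53 below 0), 0.05 without control replicate 3 (22 of 52), -0.37 without replicate 3 of both groups (39 of 52), -0.41 with the replicate block and -0.21 with the microglia covariate.

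In the further MHC class I list 1 of 18 tested genes was lower and 2 were higher, against 12.2% and 11.6% of all genes (median log2 fold change -0.01). With the replicate block 2 were lower and 0 higher, against 11.1% and 9.49%. Without control replicate 3 the median was 0.17 (6 of 18 below 0), and 0 were lower and 4 higher, against 11.1% and 9.54%. Nlrc5, the transactivator of MHC class I genes, had 244, 232, 454 and 300.5 normalized counts in controls and 92.1, 112 and 202 in knockouts, with no overlap between the groups. Its log2 fold change was -1.17 (SE 0.34, adjusted p = 0.0456 by edgeR and 0.00537 with the replicate block), and it passed in 10 of 18 alternatives. Psme1, a subunit of the proteasome activator PA28, had 1050.5, 955, 1517 and 961 normalized counts in controls and 1632, 1677 and 1676 in knockouts, where all 3 libraries were close together. It was higher in the knockout (log2 fold change 0.57, adjusted p = 0.0428 by edgeR and 0.0539 with the block), in 10 of 18 alternatives. H2-M5, with at most 29.6 normalized counts in any library, was higher as well (1.69, adjusted p = 0.0416 by edgeR and 0.0987 with the block). Of 6 tested MHC class II genes (median log2 fold change -0.54, or -0.14 over the 5 tested without control replicate 3), H2-Ab1 was lower, with 199.8, 262, 279 and 230.3 normalized counts in controls and 139, 162 and 107 in knockouts (log2 fold change -0.84, SE 0.19, adjusted p = 0.0188 by edgeR). Replicate 3 of each group, with the most microglia marker RNA, was the highest control and the lowest knockout for H2-Ab1, and the part of microglia in this difference was not tested.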

How the data were processed

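RNA-seq was analysed for 7 samples. The authors trimmed reads with Trimmomatic 0.36, mapped them with STAR 2.5.2b to the mouse genome (GRCm38 per the labels) and counted unique hits in exons with Subread 1.5.2, and the deposited values are these raw counts per gene. Neither the annotation release nor whether counting used the strand is given in the sources used here. Symbols came from a table that held 48970 of 49315 identifiers. The test was edgeR 4.0.16 in R 4.3.3, with filterByExpr by group, TMM, robust quasi-likelihood fit with the group as its only term, and Benjamini-Hochberg adjustment over 18352 genes. A gene passed when its adjusted p did not exceed 0.05, and was called when its log2 fold change was also 1 or more in size. For normalized counts each count was scaled by its library's TMM-corrected total relative to the average total, and values per kilobase use the length in the files. The fit was tested on simulated data. Single counts of 0 and their limits cover counting error only.

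The members and all lists were chosen with earlier results of these data known. Values in every library were to be given for members that passed, for those with a lone high control by Dixon's test and for the 8 with the highest level per kilobase, and for genes of the further lists only if they passed. The values of Stat2, Ifit1, Oas1a, Isg15, Gbp2, Mx1, Tap2 and Oasl2 were added after they were seen. The sources do not state whether equal replicate numbers mark a shared litter or day. For the 3 pairs of equal number, the correlation of deviations from the group means was 0.11, 0.46 and 0.17. Pairs of unequal number ranged from -0.53 to 0.20. The number was also fitted as a block. Alternatives were DESeq2 1.42.0, limma 3.58.1 (voom), other scalings and filters, the rRNA-linked share as a covariate and each library left out. Promoters came from RefSeq. The values of some listed genes are not reported here.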

Additional observations from a re-analysis of the deposited data

Results flagged for a closer look

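In 10 genes the highest control lay far from the other 3 by Dixon's test, each time in control replicate 3. Members were Parp9 with 705 normalized counts (the next control had 299), Parp14 with 1386 (396), Dhx58 with 319 (85.2), B2m with 11268 (4310.5), H2-D1 with 7302 (2715), Tap1 with 657 (369.7), Tapbp with 3294 (1608), Psmb8 with 711 (202) and Psmb9 with 201 (72.1). Of the other genes named, Psme1 had 1517 (1050.5). These were 9 of 40 members (22.5%). Of all tested genes, 8.56% had a lone high or lone low control in any replicate, a wider rule by which the members also numbered 9. Chance flags about 1 in 20 groups. All 15 microglia markers were highest in the same library. Their part in these values was not tested.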

How the results depend on the processing

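Mx2 had a log2 fold change of -0.57 to -0.46 over 18 alternatives and passed the test in 16. It missed the threshold without knockout replicate 1 or 2, which left 0 members lower, and over all leave-one-out fits 0 to 1 were. With DESeq2's Wald test, the replicate block, replicate 3 of both groups left out or the microglia covariate 2 were lower, the second being Stat2, and 0 were higher. The last pair of alternatives was chosen after seeing the data. The members' median was -0.35 with limma voom, -0.38 with the replicate block, -0.33 without replicate 3 of both groups, -0.29 with the microglia covariate and -0.78 to -0.0670 with 1 library left out. Of the 97 further genes tested, 5 were lower and 5 higher, against 12.2% and 11.6% of all genes. With DESeq2 9 of 103 were lower and with the microglia covariate 9 of 97, against 12.4% and 13.6%. With the replicate block 11 of 97 were lower, against 11.1%. Without a filter or with total counts only 2 were lower, and the share of all genes is not given here for this pair of settings. The number higher was 3 with library sizes without the rRNA-linked genes and 2 with the block, where 9.49% of all genes were higher. With 1 library left out, 1 to 7 were lower and 2 to 7 higher, while Irf2, Iigp1 and Cxcl10 passed each time. Mavs and Nlrc5 then no longer passed without control replicate 1, 3 or 4 or knockout replicate 1 or 2, and H2-Ab1 without knockout replicate 1 or 3. H2-M5 still passed only without control replicate 1 or 3, Psme1 only without control replicate 3, Tdrd7 only without control replicate 2 and Gbp5 only without knockout replicate 2. With the replicate block Gbp5, H2-M5, Psme1 and Tdrd7 did not pass.

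No member whose direction turned had passed the test. Under the replicate block Ifit2 was at -0.0572 and Irf1 at 0.0212. Ifitm3 was at -0.0125 with DESeq2 and -0.0226 without the rRNA-linked genes. Without replicate 3 of both groups Irf1 was at 0.0544, H2-K1 0.0101, Tap1 0.0201, Tapbp 0.17, Psmb8 0.10 and Psmb9 0.0496. With the microglia covariate Bst2 was at 0.0431, Irf1 0.0813, B2m 0.0540, Tap1 0.0427, Tapbp 0.17, Psmb8 0.14 and Psmb9 0.0752. Tapbp was at 0.0656 with voom, 0.11 with the rRNA-linked share as a covariate and 0.0073 with total counts. With 1 library left out values ranged from -0.0538 to 0.22 for Ifit2, -0.22 to 0.47 for Ifitm3, -1.02 to 0.0010 for Isg15, -1.57 to 0.19 for Oas1a, -0.76 to 0.34 for Bst2, -0.13 to 0.67 for Gbp2, -0.94 to 0.0544 for Trim25, -0.81 to 0.10 for Parp9, -1.25 to 0.0769 for Parp14, -1.05 to 0.19 for Dhx58, -0.18 to 0.19 for Irf1, -0.72 to 0.32 for B2m, -0.74 to 0.23 for H2-K1, -0.26 to 0.18 for Tap1, -0.17 to 0.50 for Tap2, -0.18 to 0.33 for Tapbp, -0.63 to 0.45 for Psmb8 and -0.58 to 0.35 for Psmb9. The cause was not tested. Oas2, Isg20 and Ifi44 had the lowest counts of the members, with at most 41.2 normalized counts in a library, and so the largest relative counting error.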
